A study of Homo sapiens with 2 samples.

Results

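The RRN3 peaks described here lie in introns of the longest protein-coding genes. PAR-CLIP recovers RNA fragments that were crosslinked to a protein by UV light, and here it was applied to RRN3. The study asked where RRN3 contacts RNA in ovarian cancer cells. A listed peak was taken when its midpoint fell in a GENCODE protein-coding gene of 500 kb or longer on the strand of the peak and in no annotated exon of either strand. Of 7793 listed peaks, 863 (11.1%) met this rule. They made up 19.5% (95% Wilson interval 18.4–20.7) of the 4417 peaks within introns of protein-coding genes. A further 2795 intronic peaks lay in genes of 50 to 500 kb and 759 in genes under 50 kb.

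Both libraries came from SK-OV-3, an established human ovarian adenocarcinoma line with a lentiviral vector from which the EF1a promoter drove RRN3 tagged with V5 at its N-terminus. The bound protein was therefore a tagged and ectopically expressed one. All cells received 100 μM 4-thiouridine for 14 h and 365-nm UV light at 0.2 J/cm2, and their lysate was treated with RNase A and DNase I. One part of the lysate served as the input and the rest was immunoprecipitated with an anti-V5 antibody and eluted with V5 peptide. With 1 library per condition and 1 list of peaks, no value below has a replicate check, and every interval covers counting error only. The list gives no read numbers and no expression values, so the depth behind a peak is unknown and the labelled cell line could not be checked against marker genes.

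RRN3 is the factor that joins RNA polymerase I to the promoters of ribosomal RNA genes. Introns are transcribed into the pre-mRNA and removed by splicing, and in very long genes they make up nearly the whole transcript. Genes of this size include many that build neuronal adhesion complexes and synapses, and several of them coincide with common fragile sites, regions prone to breakage when replication is slowed. 4-Thiouridine is built into new RNA in place of uridine, and it is at such positions that the crosslink forms.

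The peaks were short, between 5 and 28 bases with a median of 10, and many touched a neighbour end to end. Touching peaks of 1 strand were joined into 518 sites, of which 179 held 1 peak, 333 held 2 and 6 held 3. Site length ran from 6 to 29 bases, and the median was 17. The 12 sites of RBFOX1, a splicing regulator of neurons and muscle, are shown first because no other gene held more sites. Positions are 1-based on GRCh38, letters are read along the gene from 5′ to 3′, capitals mark the site and the 5 small letters on each side its flanks.
RBFOX1 site 1, chr16:5343724-5343738, plus strand: ttgacCTGGTGACTATGTCCgtatg
RBFOX1 site 2, chr16:5477851-5477865, plus strand: attgtTCTTCCCTGGCCAGTtagcg
RBFOX1 site 3, chr16:5786355-5786365, plus strand: ttgatAACGTCCATTCctctg
RBFOX1 site 4, chr16:5916170-5916183, plus strand: tggtgTCTGAACTGTCTCCctgac
RBFOX1 site 5, chr16:5937345-5937363, plus strand: gaactGAAGACCTCTACCTGCCATtaagc
RBFOX1 site 6, chr16:6306959-6306973, plus strand: tctctCCTTTTGCTAGACATgaacc
RBFOX1 site 7, chr16:6803850-6803868, plus strand: aactcCTTTTACAATAAAAAACCAtgctg
RBFOX1 site 8, chr16:6872716-6872730, plus strand: agttgTGTCTCAAAACCTGTgtttt
RBFOX1 site 9, chr16:7039745-7039757, plus strand: catacGTCGGATTATAGGactgt
RBFOX1 site 10, chr16:7352602-7352617, plus strand: cagaaACAAGCTCGCTATATTtccca
RBFOX1 site 11, chr16:7505672-7505686, plus strand: ctgcaAGTCGACCGCCCACTcggtt
RBFOX1 site 12, chr16:7646650-7646662, plus strand: ttgccCATTAAAGCGGTTgtata

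The 12 sequences differed in length, base composition and position, from 103.9 kb to 2407 kb after the start of the gene. Sites 1 to 5 lay in no intron of the Ensembl canonical transcript. Sites 5, 7 and 10, of 16 to 19 bases, each occurred once in the genome. The shorter sites of RBFOX1 with 12 or more bases occurred between 3 and 41 times. A CpG dinucleotide was present in 5 of the 12 sites. The authors' p-values ran from 4.39e-163 for site 7 to 0.0190 for site 3.

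Sites with the lowest p-values are shown next. The p-value was listed as 0 for 22 sites in 22 genes, and ties were ordered by the fold enrichment. Of the first 5 in this order, those in CNTN4, a contactin of axons, TBC1D5, a Rab GTPase-activating protein of endosomes, DPYD, the first enzyme of pyrimidine breakdown, and SOX5, an HMG-box transcription factor, were the following.
CNTN4, chr3:2674849-2674863, plus strand: tgaatTTGGATCTGTTAACCaacct
TBC1D5, chr3:18178902-18178911, minus strand: actcaTGTTTGAGAAcattt
DPYD, chr1:97994902-97994914, minus strand: ccaggTAACTGGCTTGGAtgtga
SOX5, chr12:24295166-24295179, minus strand: cttatGTTTACTCATATATactta

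The sites in CNTN4, TBC1D5 and SOX5 were placed deep in introns, 45.3 kb, 265.7 kb and 17.9 kb from the nearest exon of the same gene. Of these, only the CNTN4 site lay in an intron of the Ensembl canonical transcript. The midpoint of the DPYD site was 92 bases after the start of the gene and 8 bases from an exon. The DPYD sequence occurred 143 times in the genome, that of SOX5 67 times and that of CNTN4 7 times, while that of TBC1D5, with 10 bases, was too short to count. These positions are therefore those of the list, which the sequences alone do not fix. The other site among these 5, at chr12:129771170-129771191, was in TMEM132D, a transmembrane protein gene. It was placed in intron 1 at 70.5 kb from the nearest exon of the same gene and occurred once in the genome. Its sequence is not shown, because reads with these letters may stem from RNA of another organism. The same doubt holds for some other sites. No reference for that was used here, so the origin of the reads was not tested at this or any other site. The fold enrichments of the 5 sites, which were picked by this value, were between 3.65 and 3.99. Those of all 22 sites with a p-value of 0 were between 2.09 and 3.99. Over the 863 peaks, fold enrichment and p-value had a Spearman correlation of 0.00910. Of the 22 sites with a p-value of 0, 6 were shorter than 12 bases and 7 occurred once in the genome.

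Most genes of this length held at least 1 site. On the 19 chromosomes with listed peaks, 214 of 255 genes of 500 kb or longer had an intronic peak (83.9%, 95% Wilson interval 78.9–87.9), while 11.7% of protein-coding genes of any length did (1955 of 16702). The share was higher in each longer class, from 3.91% under 50 kb to 24.4% at 50 to 500 kb and 88.9% (48 of 54) at 1 Mb or longer. Of the genes with a site, 65 held 1, 67 held 2, 44 held 3 and 38 held 4 or more. Genes with a site had a median length of 736.7 kb and those without one 588.0 kb. A further 68 genes of this length lie on chromosomes 7, 8, 9, X and Y, where the list used here holds no peak. Whether this list is complete is not known, and the shares of peaks above rest on it as it stands.

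Measured per Mb of intron, the density in these genes was close to that in genes of intermediate length. It was 2.54 sites per Mb (exact Poisson interval 2.33–2.77) in genes of 500 kb or longer, 2.68 (2.56–2.81) in genes of 50 to 500 kb and 3.37 (3.07–3.69) in genes under 50 kb. The intervals of the long and the intermediate genes overlapped, and the interval of the shortest genes lay above both. Counted as peaks, the densities were 4.23 (3.95–4.52), 4.42 (4.26–4.58) and 5.60 (5.21–6.02) per Mb. Below 500 kb, sites and bases are not fully matched. Where a gene under 50 kb overlaps one of 50 to 500 kb on the same strand, shared sites counted for the shorter gene and shared bases for the longer. This can raise the density of the shortest genes and lower that of the intermediate ones, by an amount that was not measured. Within the long genes, the density was 2.66 sites per Mb (2.39–2.95) at 500 kb to 1 Mb and 2.33 (1.99–2.71) above that. The 20 shortest genes inside the length limit, of 500.9 to 516.1 kb, held 19 sites, or 1.94 per Mb (1.17–3.03). The 20 longest outside it, of 484.8 to 498.3 kb, held 31, or 3.26 per Mb (2.21–4.62), with overlapping intervals.

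**Figure D1:**
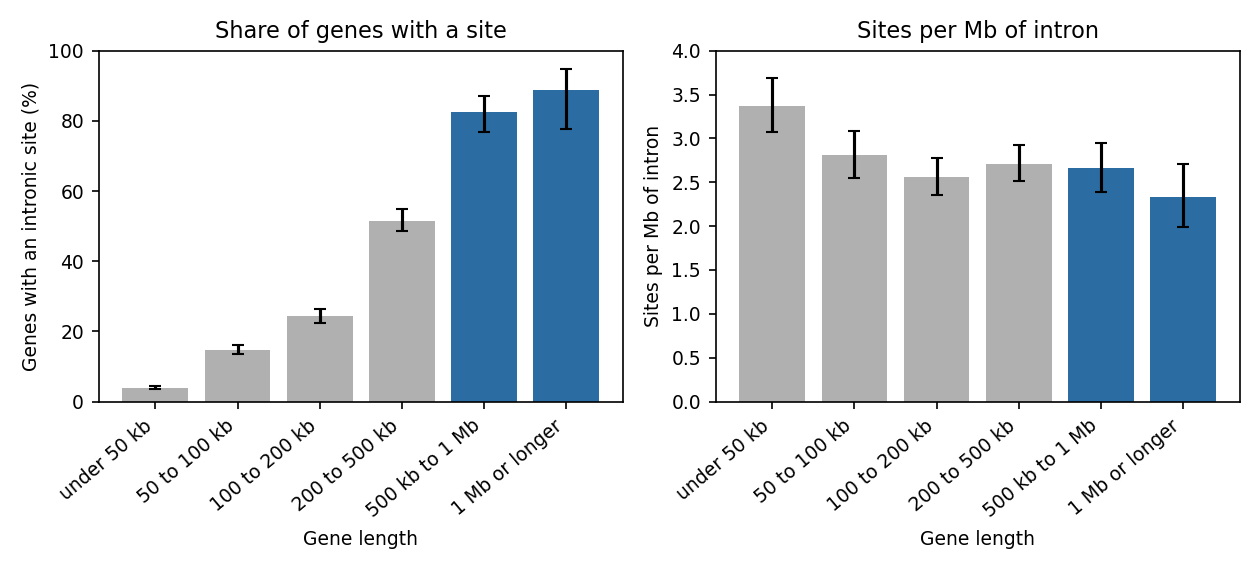
Left, share of protein-coding genes with an intronic site (%), and right, sites per Mb of intron, in 6 classes of gene length; blue bars are genes of 500 kb or longer and error bars are 95% Wilson (left) and exact Poisson (right) intervals. The share climbs from 3.91% to 88.9%, while the density stays between 2.33 and 3.37 sites per Mb. In the classes under 500 kb, sites shared by overlapping genes count for the shorter gene and shared bases for the longer class.

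Longer genes held more sites, though with wide scatter. In 5 groups of 51 genes ordered by length, the mean number of sites was 1.29, 1.53, 1.80, 2.45 and 3.08. In the same order the density was 2.54, 2.66, 2.61, 2.79 and 2.23 sites per Mb. Across the 255 genes, which share 1 pair of libraries, the Spearman correlation of sites with gene length was 0.396. By chromosome, the density ran from 1.64 sites per Mb (0.533–3.83) on chromosome 21 to 3.27 (2.26–4.57) on chromosome 12, with overlapping intervals, and chromosome 19 holds no gene of this length.

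**Figure D2:**
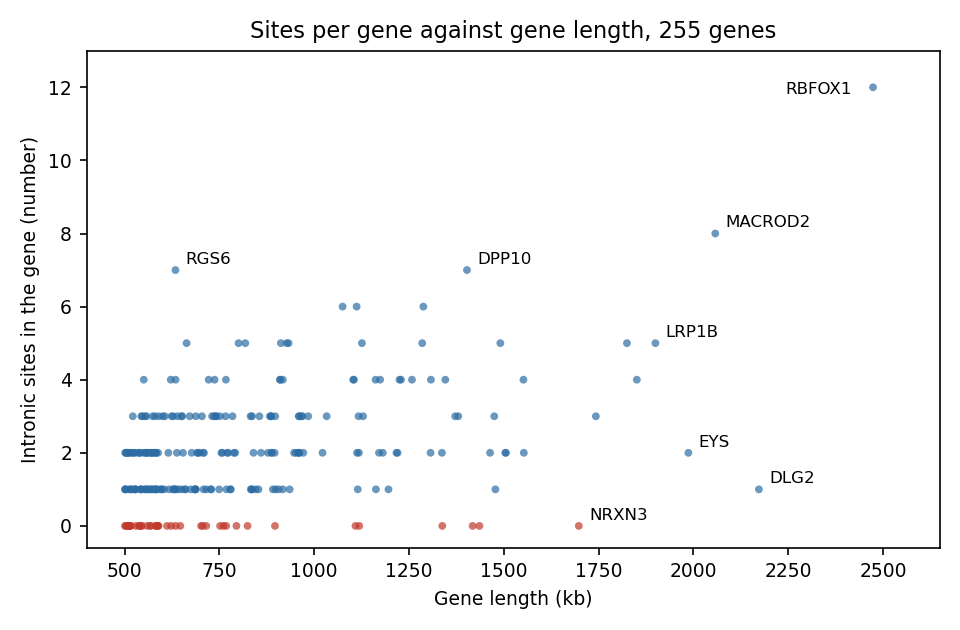
Each point is 1 of 255 protein-coding genes of 500 kb or longer, with its length (kb) on the horizontal and its number of intronic sites on the vertical axis. Red points are the 41 genes to which no site was assigned. Genes above 1 Mb range from 0 sites (NRXN3) to 12 (RBFOX1).

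RBFOX1 had 12 sites in 2474 kb, or 4.92 sites per Mb (2.54–8.60). It was followed by MACROD2, a mono-ADP-ribosylhydrolase gene, with 8 sites in 2058 kb. RGS6, a regulator of G-protein signalling, reached 7 sites in only 634.1 kb, or 11.2 per Mb (4.52–23.2). DPP10, an auxiliary subunit of potassium channels, also held 7 sites, in 1403 kb, and the one with the lowest p-value, 4.50e-255, differed by 1 base from a human tRNA gene. Since these genes were picked for their counts, their densities are a description and are not set against those of other genes.

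Next came PARD3B, a cell polarity gene, TBC1D5, and NRG3, a ligand of the receptor ERBB4, with 6 sites each. LRP1B, an endocytic receptor of the LDL receptor family, CTNND2, a catenin of neuronal junctions, BANK1, a scaffold of B-cell signalling, THSD7B, a thrombospondin-domain gene, and FRMD4A, a scaffold of epithelial polarity, held 5 each. In RGS6, LRP1B, CTNND2, BANK1 and THSD7B every site occurred once in the genome, in contrast to 3 of 12 in RBFOX1. The sites were not gathered in 1 intron in most of these genes: MACROD2, RGS6, CTNND2 and THSD7B had sites in 5 different introns each, while in FRMD4A those within the canonical transcript lay in 1 intron. DPP10 had 5 of its 7 sites in intron 1.

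**Figure D3:**
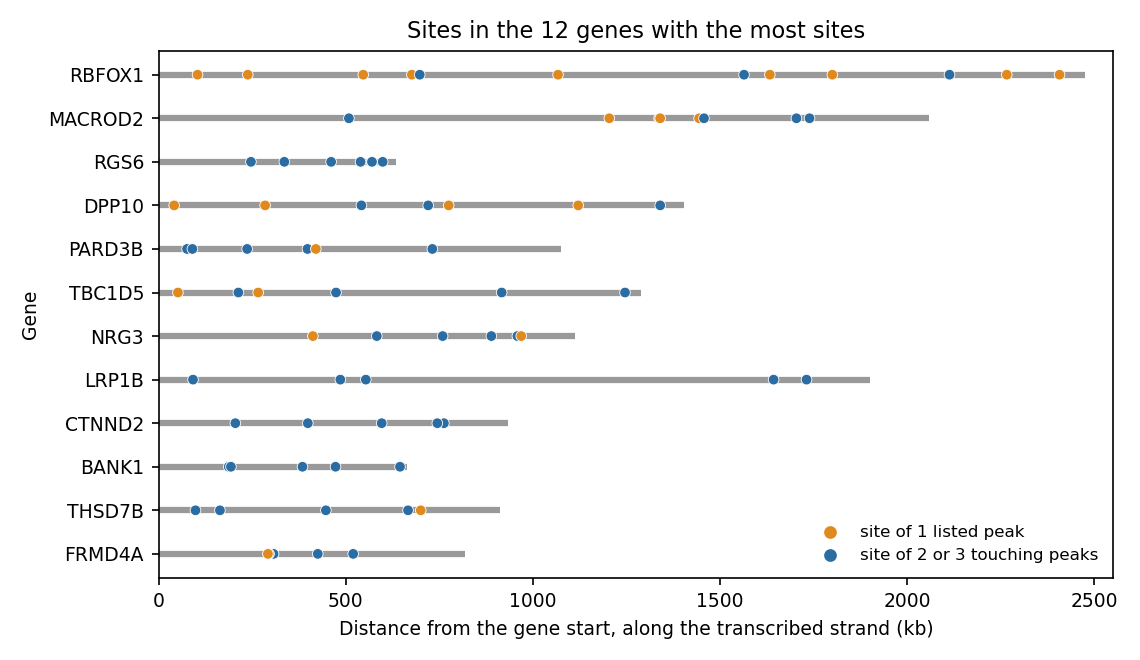
Grey bars are the 12 genes with the most sites, drawn to scale from the gene start (0) along the transcribed strand in kb; orange points are sites of 1 listed peak and blue points sites of 2 or 3 touching peaks. RBFOX1 carries sites from 103.9 to 2407 kb, and in RGS6 the 7 sites lie between 246.6 and 598.5 kb.

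Some of the longest genes held few sites or none. DLG2, the scaffold PSD-93 of the postsynaptic density and the second longest gene here with 2173 kb, had 1 site at 1234 kb, or 0.468 per Mb (0.0119–2.61). EYS, a photoreceptor matrix gene of 1987 kb, had 2, or 1.02 per Mb (0.124–3.69), and LRP1B had 5 in 1900 kb. Among the 41 genes without a site, the longest were NRXN3, a presynaptic neurexin of 1698 kb, and RBMS3, a binding protein of single-stranded nucleic acid of 1436 kb. The exact Poisson interval of a count of 0 reaches 2.20 sites per Mb in NRXN3 and 2.63 in RBMS3. The intervals of DLG2, EYS and RBMS3 held the 2.54 per Mb of all genes of this length, and that of NRXN3 ended below it. Whether these counts differ by more than counting error was not tested. NRXN3 and RBMS3 were singled out of the 41 as the longest with a symbol. Where 2 genes of this length overlap on 1 strand, a shared site was assigned to the shorter. A gene of the 41 that has no symbol therefore spans a site that was assigned to the overlapping FOXP1.

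Genes of neuronal adhesion and axon guidance had a site in 26 of 30 cases (86.7%), close to the 83.9% of all genes of this length. They held 61 sites, or 2.05 per Mb (1.57–2.63). Examples were the teneurin TENM2 with 5 sites, the cadherins CDH12 and CDH18 with 4 each and the IgLON protein NTM with 3, all 3 in its first intron. NRXN3 and CNTN5 of the same list had none. Genes of synapses and ion channels had a site in 20 of 21 cases (95.2%) and a density of 2.44 sites per Mb (1.78–3.25). Beside NRG3 they included ANKS1B, a postsynaptic scaffold, GRID1, a delta-type glutamate receptor, and SYN3, a synapsin, with 4 sites each.

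Genes at common fragile sites had a site in 19 of 20 cases (95%), with 59 sites and 2.35 per Mb (1.79–3.03). Beside MACROD2 and LRP1B they included CTNNA3, an alpha-catenin, with 4 sites. Genes listed for cell polarity, signalling and other roles in many cell types had a site in 23 of 25 cases (92%), with 2.89 per Mb (2.18–3.75). Beside PARD3B and TBC1D5 they included LPP, a LIM protein of focal adhesions, with 4 sites, while the polarity gene PARD3 held none. Of the 5 long genes for RNA-binding proteins 3 had a site. Beside the 12 of RBFOX1, the neuronal paralog RBFOX3 held 3 and ADARB2, a relative of the adenosine deaminases, held 2, whereas RBMS3 and CELF2 held none. The intervals of all 5 lists held the density of 2.54 per Mb over all genes of this length. Whether these genes are transcribed in SK-OV-3 cells was not analysed here.

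The sites were spread over the introns as intronic sequence itself is. Their median distance to the nearest exon of the same gene was 16.7 kb (14.6–19.4), and the median over all intronic bases of these genes was 18.3 kb. Counted over the 863 peaks it was 17.2 kb (15.2–18.9), against 3.56 kb in genes of 50 to 500 kb and 0.552 kb in genes under 50 kb. Within 200 bases of an exon lay 12 sites (2.32%, 1.33–4.01), where 1.44% of the intronic bases lie. Within 1 kb lay 8.49% of the sites (6.39–11.2) and 6.33% of the bases, and within 10 kb 36.5% and 35.2%. At 0.500 kb and 1 kb the lower limits of the sites' intervals were just above the share of bases (3.61% against 3.43% at 0.500 kb), and at 200 bases and from 2 kb to 200 kb the share of bases lay within the interval.

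Of the 456 sites inside an intron of the Ensembl canonical transcript, 80 (17.5%, 14.3–21.3) lay in intron 1, which holds 18.9% of the intron bases. The last intron held 20 sites (4.39%) and 4.79% of the bases. Over these sites the median length of the surrounding intron was 145.1 kb, and the median intron base, with introns ordered by length, lay in one of 133.0 kb. Along the gene, from 0 at the start to 1 at the end, the median position of the sites was 0.524 (0.477–0.563). Cut into 10 equal parts, the gene body held between 40 and 66 sites per part, with 47 in the first and 40 in the last. Neighbouring sites of a gene were 143.8 kb apart at the median, and 13 of 304 gaps were under 10 kb.

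The strand of the gene carried nearly all peaks of these introns. In the 190.6 Mb of the same introns with no annotated gene on the opposite strand, 820 peaks lay on the strand of the gene, or 4.30 per Mb (4.01–4.61). On the opposite strand there were 2, or 0.0105 per Mb (0.00127–0.0379). Over the whole spans, 35 peaks outside exons lay on the opposite strand, of which 6 were in another protein-coding gene and 27 in a non-coding gene of their own strand. Whether peaks were called in annotated genes only is not given in the sources used here. Only 9 sites (1.74%) lay within a non-coding gene of the same strand.

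The authors' values of the peaks were close to those of other intronic peaks. The median p-value was 1.92e-47, beside 9.11e-46 for the other intronic peaks, and 9.62% and 8.89% had a p-value above 1e-05. Both peaks of a touching pair carried almost the same p-value, within 3-fold in 319 of the 320 pairs where both were above 0. Their fold enrichments, which ran from 2.00 to 4.00 with a median of 2.95, had a Spearman correlation of −0.0309 within the 333 pairs. Sites of 1 peak were shorter, with a median of 13 bases against 18 for those of 2, and had a higher median p-value of 3.10e-13 against 1.45e-55.

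CpG was the dinucleotide by which the sites differed most from their surroundings. CpG is rare in human introns, where methylated cytosines are lost over time by mutation to thymine. It occurred in the sites at 0.770 (0.686–0.864) of the frequency given by their C and G content, and at 0.255 (0.222–0.293) in the 20 bases on each side. In windows of the same length 1 kb away the value was 0.240 (0.205–0.280). At least 1 CpG was present in 239 of 518 sites (46.1%, 41.9–50.4) and in 13.1% of these windows. The share of CpG among dinucleotides was 3.37 times that of the flanks, and the next highest ratios were 1.22 for GT and 1.19 for TC. The lowest ratio was 0.765 for CA.

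The same contrast between site and flank was present in shorter genes, with 0.772 against 0.282 in genes of 50 to 500 kb and 0.892 against 0.389 in genes under 50 kb. In the long genes the value of the sites moved with their length, and that of the flanks less so. It was 1.15 (0.910–1.45) in the 99 sites of up to 13 bases, 0.972 (0.771–1.22) at 14 to 16 bases, 0.632 (0.505–0.788) at 17 to 18 and 0.592 (0.468–0.748) from 19 bases on. The flanks of these sites had 0.299, 0.306, 0.231 and 0.216 in the same order. Sites with a p-value at or below the median had 0.700 (0.593–0.826) and those above it 0.850 (0.724–0.998), with overlapping intervals. In the 7 sites of RGS6, 2 held a CpG, and in TBC1D5 and NRG3 4 of 6 did.

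How often a site sequence recurs in the genome also differed from the surroundings. Of 311 sites with 17 or more bases, 308 (99.0%, 97.2–99.7) occurred once on both strands of the reference chromosomes, against 66.2% (62.4–69.8) of the windows of the same length 1 kb away. Sites of 12 to 16 bases occurred 12 times at the median and their windows 62 times. With up to 1 mismatch, 1 of the 311 sites, that in DPP10, matched a human tRNA gene of RefSeq (0.322%, 0.0568–1.80), as did 3 of 622 windows (0.482%, 0.164–1.41). An rRNA gene was matched by 1 site (0.322%, 0.0568–1.80) and 14 windows (2.25%, 1.35–3.74). Genes of other structural RNAs, such as snRNA and snoRNA, were matched by 1 site (0.322%, 0.0568–1.80) and 51 windows (8.20%, 6.29–10.6). The reason for these shares was not tested. All 485 sites with 12 or more bases differed from each other in sequence. Among the sites with 17 or more bases that occur once, the CpG value was 0.618, and in windows of that kind it was 0.262. The part of site length and of unique placement in the CpG content was not tested further.

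Uridine, the base that 4-thiouridine replaces, had a like share inside and outside the sites. Thymine, as it stands in the DNA sequence, made up 30.8% of the bases of the sites, 31.2% of the 20-base flanks and 30.9% of the windows 1 kb away. Only 8 sites (1.54%) held no T, and 1.45% of the windows did not either. Base changes in the reads, which mark crosslinks in PAR-CLIP, are not part of the list.

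Polyadenylation signals occurred near the sites about as often as elsewhere in these introns. The hexamers AATAAA or ATTAAA, which direct cleavage and polyadenylation of the transcript, were searched within 50 bases on each side of the midpoint, and a window with both counted once. On the strand of the gene, 79 of 518 windows (15.3%, 12.4–18.6) held one, and on the opposite strand 86 (16.6%). Windows moved by 1 kb held one in 14.9% downstream and 15.8% upstream. Around intronic sites of genes of 50 to 500 kb the share was 10.1% and in genes under 50 kb 6.80%. Moved windows and the opposite strand were not searched in these shorter genes. The 20-base flanks held 29.0% A and 31.2% T in the long genes. They held 26.5% and 30.2% in genes of 50 to 500 kb and 23.8% and 26.6% in genes under 50 kb. The part of base composition in the differing hexamer shares was not tested. Of the RBFOX1 sites printed above, site 7 holds AATAAA and site 12 holds ATTAAA within the site itself.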

How the data were processed

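Per the labels, 1 anti-V5 immunoprecipitate and 1 input library of SK-OV-3 cells were made with adapters that carry molecular identifiers. Peaks of the immunoprecipitate over the input were deposited as 1 list. The deposited fold enrichment is a ratio computed by the authors, and the deposited p-value, false discovery rate and score are also theirs. The aligner, the peak caller, its test and any restriction to annotated genes are not given in the sources used here. The submitters' processing notes name GRCh38. Whether reads had to align to 1 place is not given there either.

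Peak starts are 0-based. Midpoints were placed with GENCODE release 44, and the shorter gene was taken where 2 fitted. Intron bases shared by 2 length classes were counted in the longer class. Sites are touching peaks of 1 strand joined. The CpG value is observed over expected, where expected is the C share times the G share. Occurrences were exact matches of 12 or more bases on both strands of chromosomes 1 to 22, X, Y and M. Matches with up to 1 mismatch to RefSeq tRNA, rRNA and other structural RNA genes, on either strand, were added after seeing the data. Shares have 95% Wilson, densities exact Poisson and medians order-statistic intervals. No test was run, since there are no replicates. The functions were tested on simulated data.

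The named genes were the 12 with the most sites, those of the 5 sites with the lowest p-value, the 5 longest, and the 4 with the most sites in each of 5 lists. Of these genes, 2 are not reported here. The lists were written from general knowledge, and the members and lists were chosen with earlier results of these data known. NRXN3, CNTN5, PARD3 and CELF2, which held no site, were named after their values were seen. Scripts ran on samtools 1.23.1, pysam 0.24.0, numba 0.67.0, matplotlib 3.10.9, scipy 1.17.1, pandas 2.3.3, numpy 2.4.6 and Python 3.11.15.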

Additional observations from a re-analysis of the deposited data

How the results depend on the processing

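Of 68 alternatives, 49 left the value within the interval of the reported one or, for a count, within 1.5-fold. No result has a test, so no call could change. Among the 863 peaks, those with a p-value at or below the median of the list were 440, a density of 2.16 per Mb, 56.5% of the genes with a peak and a CpG value of 0.683. With genes of 1 Mb or longer there were 272 peaks in 48 genes, 88.9% of such genes, 6.16% of the intronic peaks, 3.77 peaks per Mb and a median distance to an exon of 25.5 kb. With genes of 400 kb or longer the share of intronic peaks was 26.6%. Joined peaks gave 518 sites and 2.54 per Mb. Over chromosomes 1 to 22, X and Y, 66.3% of the genes had a peak. Canonical exons alone raised the median distance to 34.6 kb. A hexamer lay within 100 bases of 26.3% of the sites, and AATAAA alone within 50 bases of 8.88%. Windows 5 kb away had a CpG value of 0.194. Of 2 choices for CpG added after seeing the data, sites of 17 bases or longer found once gave 0.618. Reading the midpoint number as 1-based, also added later, left each of the 9 main values within its interval or 1.5-fold. The moved values came from settings that counted other peaks, sites, genes, exons, hexamers or windows. Why each value moved was not tested. No paired analysis was possible because there is 1 library per condition. Counting error is the sole error given, and the depth behind each peak is unknown.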
